A study of Mus musculus with 5 samples.

Results

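The cells described here were mouse liver endothelial cells that carried Rspo3 or Wnt9b, secreted signals for which the lining of the central veins is best known. A cell was taken when it held at least 500 molecules, at least 200 genes and at most 25% mitochondrial molecules. Its molecules of the endothelial genes Pecam1, Cdh5, Egfl7 and Ptprb had to sum to at least 5, those of Rspo3 and Wnt9b to at least 2, and those of the Kupffer cell genes Clec4f, Cd5l and Vsig4 to under 10. The rule held for 654 cells, which were 6.69% of 9783 endothelial cells among 19815 captured cells, and they are called gated cells below. Both groups were wild-type males that had surgery aged 9 weeks, and their livers were taken 2 weeks afterwards. The pIVCL group (421 gated cells, 3 libraries) had partial ligation of the inferior vena cava, which holds back blood leaving the liver, and the sham group (233 gated cells, 2 libraries) had sham surgery. Livers had been digested with pronase and collagenase, and the captured suspension had been depleted of hepatocytes, erythrocytes and dead cells.

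Blood leaves each liver lobule through a central vein. The endothelium of that vein secretes R-spondin 3, Wnt9b and Wnt2, which keep beta-catenin target genes on in the hepatocytes around it. The sinusoidal capillaries next to the vein make some of the same signals, and hepatic stellate cells, the pericytes of the sinusoid, also make R-spondin 3.

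The gated cells held 912283, 1248413 and 830194 molecules in pIVCL libraries 1, 2 and 3, and 859437 and 467644 in sham libraries 1 and 2. They numbered 133, 167 and 121 cells in pIVCL and 152 and 81 cells in sham. Their median depth was 5918, 5773 and 5950 molecules per cell in pIVCL and 5232.5 and 5392 in sham, whereas the other 9129 endothelial cells had medians of 4131.5, 4214 and 4424 in pIVCL and 5205 and 4970.5 in sham. Both sham libraries and pIVCL 1 were labelled batch 2021.3, and pIVCL 2 and pIVCL 3 were labelled batch 2021.7, so most of the surgery contrast cannot be told apart from batch. The labels do not say that libraries came from separate animals, so p-values measure the spread between libraries, which may be technical. Cell barcodes shared between libraries numbered 186 over 10 pairs of libraries, and none of these was a gated cell in both libraries of its pair.

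The label of central vein endothelium held for a minority of the gated cells. Bmp4, a growth factor of vein endothelium, was detected in 52.6, 41.3 and 58.7% of gated pIVCL cells and 25.7 and 33.3% of gated sham cells, against at most 5.88% of the other endothelial cells of any library. Selp, the leukocyte-rolling receptor P-selectin, was detected in 69.9, 56.3 and 71.9% of gated pIVCL cells and 44.7 and 65.4% of gated sham cells, against at most 18.1% of the other endothelial cells. Most gated cells nevertheless carried more sinusoidal than large-vein transcripts. Gated cells were split by whether the molecules of 7 large-vein genes (Bmp4, Selp, Vwf, Lhx6, Ackr1, Cpe, Ptgs1) outnumbered those of 7 sinusoidal genes (Stab1, Stab2, Clec4g, Mrc1, Fcgr2b, Gpr182, Dnase1l3). By that split 106 cells (16.2%) were vein-type and 548 were sinusoid-type. The split cuts a range, since 60 cells lay where large-vein genes gave 40 to 60% of the 14-gene sum, and 303 cells lay under 10%. Bmp4 was detected in all, 95.2% and all of the vein-type cells of pIVCL 1, 2 and 3 and 92.0 and 93.3% of vein-type sham cells, and Stab2, a hyaluronan scavenger receptor of sinusoids, totalled 3, 2 and 2 molecules in the vein-type cells of the pIVCL libraries and 1 and 0 in those of sham. Both genes belong to the split, so these values describe it and give it no separate support. The lymphatic genes Pdpn and Ccl21a had 0 molecules in vein-type cells.

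**Figure D1:**
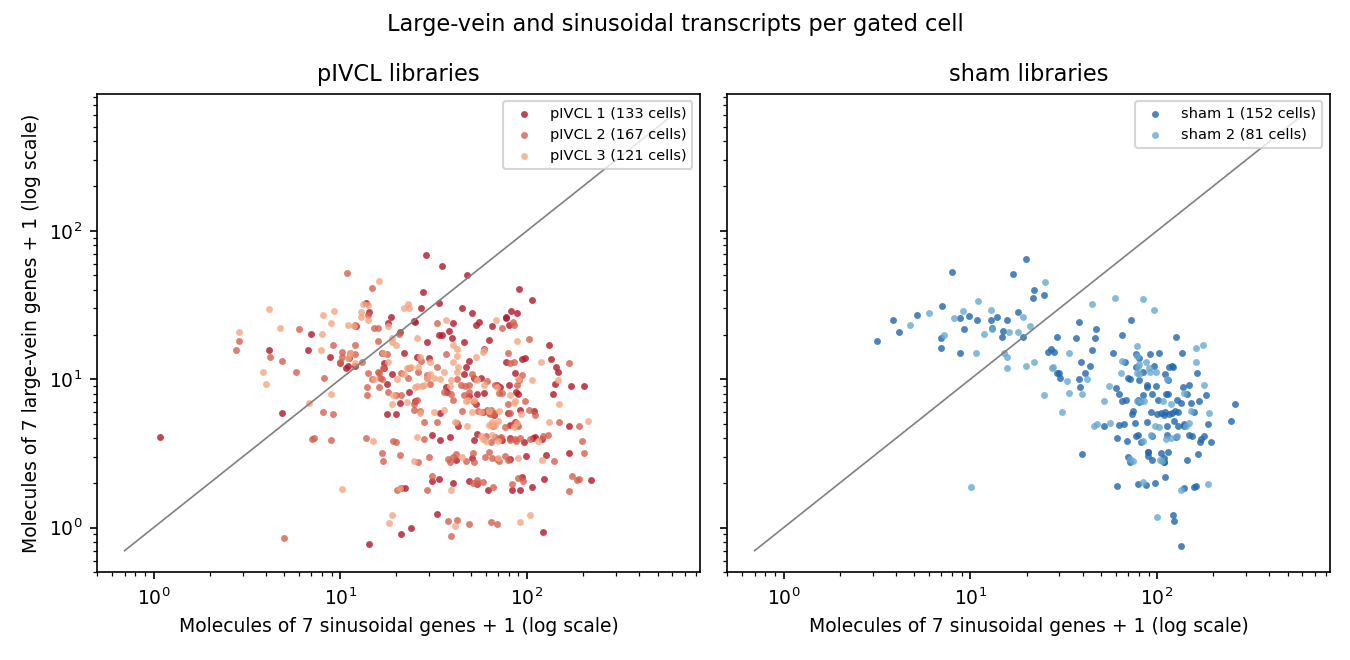
Each point is 1 gated cell, plotted by its molecules of 7 sinusoidal genes plus 1 (x axis, log scale) and of 7 large-vein genes plus 1 (y axis, log scale), with pIVCL libraries on the left and sham libraries on the right and a small random offset to separate points. The grey line marks equal sums: 106 of 654 cells lie above it and are the vein-type cells.

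Molecules of other cell types were also present. At least 3 molecules of a stellate and fibroblast list were found in 29.3, 34.7 and 24.8% of gated pIVCL cells and 14.5 and 13.6% of gated sham cells, while the other endothelial cells had 15.2, 9.94 and 13.3% in pIVCL and 12.4 and 13.6% in sham. That list made up 0.298, 0.876 and 0.375% of gated molecules in pIVCL and 0.130 and 0.0763% in sham. Its highest count in a gated cell was 518, 524 and 409 molecules in pIVCL 1, 2 and 3 and 306 and 265 in sham 1 and 2. Counts of 201 or more were found in many gated cells of pIVCL 2 and several of pIVCL 1 and 3. In sham they were 306 and 255 in sham 1 and 265 in sham 2. All of these cells were sinusoid-type with 0 Wnt9b molecules, so they passed the rule by Rspo3. Whether that Rspo3 came from stellate cells was not tested. Among vein-type cells the list made up 0.0414, 0.0199 and 0.0368% of molecules in pIVCL and 0.124 and 0.0222% in sham. At least 3 molecules of the list were found in 10 of 20, 2 of 21 and 9 of 25 vein-type cells in pIVCL and 6 of 25 and 2 of 15 in sham. Lrat, which stores retinol in stellate cells, had 0 molecules in vein-type pIVCL cells and 2 in vein-type sham cells, all in sham 1. Free RNA could not be separated from a cell's own, and 2 or more Rspo3 and Wnt9b molecules were found in 1.34% of 1488 Kupffer cells (median 6628 molecules) and 0.347% of 1731 lymphoid cells (median 2473 molecules). Of 909 cells with stellate genes, 46.5% had as many, all of them Rspo3, with 0 molecules of Wnt9b. Bmp4 was detected in 36.9% of those cells too, but Selp in 0.550%, Lhx6 in 0.550% and Vwf in 0.660%. Cells just inside the threshold, with exactly 2 such molecules, numbered 94 in pIVCL and 49 in sham, and 22.4% of these carried Bmp4. The large-vein genes gave 0.0685% and the sinusoidal list 1.24% of their molecules. Just outside it, 233 pIVCL and 184 sham cells had 1 such molecule, with 0.0540% from the large-vein genes and 1.498% from the sinusoidal list.

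The gated cells made up 8.38, 8.4 and 15.4% of endothelial cells in pIVCL (exact 95% intervals 7.06 to 9.85, 7.22 to 9.71 and 13.0 to 18.2%) and 5.24 and 3.21% in sham (4.45 to 6.11 and 2.56 to 3.98%). Since deeper cells pass the rule more readily, every endothelial cell was also thinned to 2000 molecules, which left out 131 shallower pIVCL cells and 0 sham cells. The shares were then 5.07, 4.26 and 8.91% in pIVCL and 3.40 and 2.51% in sham. The pIVCL libraries were all above the sham libraries, with a difference of 3.12 percentage points (two-sided exact permutation test over libraries, p = 0.2, 0.1 being the smallest value that 3 against 2 libraries allow). Without pIVCL 3 the difference was 1.71 percentage points. Thinned to 1000 molecules it was 2.01 percentage points (exact permutation p = 0.5), and with a gate of 3 molecules 1.77 (exact permutation p = 0.3), and in both pIVCL 2 lay below sham 1. Vein-type cells were 15.0, 12.6 and 20.7% of gated cells in pIVCL (20, 21 and 25 cells) and 16.4 and 18.5% in sham (25 and 15 cells), so the groups overlapped (difference −1.39 percentage points, exact permutation p = 0.8).

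The rule was set on Rspo3 and Wnt9b, so their levels in the gated cells are given as a description, without a test. Levels are in CPM, a gene's molecules divided by the library's scaled total, with the usual factor for CPM, and were scaled within each comparison. Rspo3 stood at 1319, 852 and 1130.3 CPM in pIVCL, against 1802 and 2248 CPM in sham gated cells. Wnt9b, a Wnt ligand of the central vein, stood at 63.6, 75.9 and 60.6 CPM in pIVCL, against 566 and 427 CPM in sham gated cells. Both genes were lower in gated cells of the 3 pIVCL libraries than in those of both sham libraries, Wnt9b by more. The share of gated cells with any Wnt9b molecule was 18.8, 25.8 and 19.0% in pIVCL and 77.0 and 65.4% in sham, and after thinning each cell to 2000 molecules it was 10.53, 11.5 and 10.3% in pIVCL and 53.3 and 44.4% in sham. Gated pIVCL cells thus entered the set almost entirely by Rspo3, which was detected in 100, 98.8 and 99.2% of gated pIVCL cells and 79.6 and 91.4% of gated sham cells.

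The same order was seen in vein-type cells. Rspo3 stood at 2354, 2858 and 2782 CPM in pIVCL, against 5056 and 5481 CPM in sham vein-type cells. Wnt9b stood at 249.9, 359 and 238 CPM in pIVCL, against 1473 and 969 CPM in sham vein-type cells. After thinning, 20, 30 and 34.8% of vein-type pIVCL cells and 72.0 and 60% of vein-type sham cells had a Wnt9b molecule. Within the gate, vein-type cells held more of both transcripts than sinusoid-type cells, at 2194 to 5037 against 775 to 1891 CPM of Rspo3 and 211 to 1342 against 35.4 to 489.9 CPM of Wnt9b over the 5 libraries.

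Settings of the cell sets, tools and batches that changed a call are named after the values by short terms. A setting under which a gene was not tested, such as when its counts fell below the expression filter, is not named. Absence of a setting therefore does not mean that the call held there. Thinned gate applies the rule after thinning each cell to 2000 molecules, gate at 3 asks for 3 molecules of Rspo3 and Wnt9b, and strict filter asks for at least 1000 molecules and at most 10% mitochondrial. Doublets out removes the 3% of cells per library with the highest doublet scores, and foreign cells out removes gated cells (in the sums over all endothelial cells, any endothelial cell) with at least 3 stellate and fibroblast molecules or any of the 3 Kupffer genes. Depth-matched sets each gated cell against 1 other endothelial cell of like depth, batch term adds batch to the model, no library block leaves library out of the model, batch 2021.3 uses that batch alone, where the spread comes from the 2 sham libraries since it holds 1 pIVCL library, no filter keeps every gene with a count, DESeq2 scaling uses its size factors, and DESeq2 alone is its Wald test.

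Over all endothelial cells, a set whose rule does not use these genes, the signals could be tested. In that comparison 563 of 12199 genes passed (4.62%; 304 higher and 259 lower in pIVCL). Without pIVCL 1, pIVCL 2 or pIVCL 3 the count was 2969, 140 and 56, and without sham 1 or sham 2 it was 23 and 30. Rspo3 was at 169, 115 and 238 CPM in pIVCL, against 101 and 82.0 CPM in sham (log2 fold change 0.92 ± 0.30, edgeR adjusted p = 0.136). Wnt9b was at 7.97, 10.3 and 12.1 CPM in pIVCL, against 35.4 and 17.6 CPM in sham (log2 fold change −1.40 ± 0.32, edgeR adjusted p = 0.0597). Neither passed, although their groups did not overlap, as in 43.1% of all genes tested, and the differences had opposite signs. Wnt2, the other Wnt ligand of this endothelium, was at 102, 50.4 and 58.0 CPM in pIVCL, against 185 and 157 CPM in sham and did not pass either (log2 fold change −1.29 ± 0.30, edgeR adjusted p = 0.0659). Bmp4 was at 59.6, 30.3 and 97.1 CPM in pIVCL, against 14.9 and 11.3 CPM in sham (log2 fold change 2.22 ± 0.51, edgeR adjusted p = 0.0727). Selp passed, at 67.4, 48.1 and 103 CPM in pIVCL, against 20.3 and 20.02 CPM in sham (log2 fold change 1.84 ± 0.32, edgeR adjusted p = 0.0338), so P-selectin transcripts were higher in the pIVCL sums. These sums alone do not separate a larger share of gated cells from more transcript per cell, and levels inside and outside the gate are given below. Of the stellate and fibroblast list 10 of 18 rose in these sums and 0 fell (median 2.26). Rspo3, Wnt9b, Wnt2 and Bmp4 were at 0.89, −1.74, −0.75 and 2.18 within batch 2021.3 alone (log2 fold change, pIVCL 1 against both sham libraries). Selp (1.53, edgeR adjusted p = 0.063) no longer passed without pIVCL 3, Selp (1.85, 0.241) without sham 1, and Selp (1.83, 0.238) without sham 2. Wnt2 (−1.66, edgeR adjusted p = 0.000147) passed without pIVCL 1, and Bmp4 (2.57, edgeR adjusted p = 0.0294) without pIVCL 2. Selp (no filter, batch term) lost the call under other settings. Rspo3 (DESeq2, batch 2021.3), Wnt9b (no filter, DESeq2), Wnt2 (DESeq2, strict filter, foreign cells out, batch term, batch 2021.3) and Bmp4 (DESeq2, strict filter, batch 2021.3) passed under other settings.

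**Figure D2:**
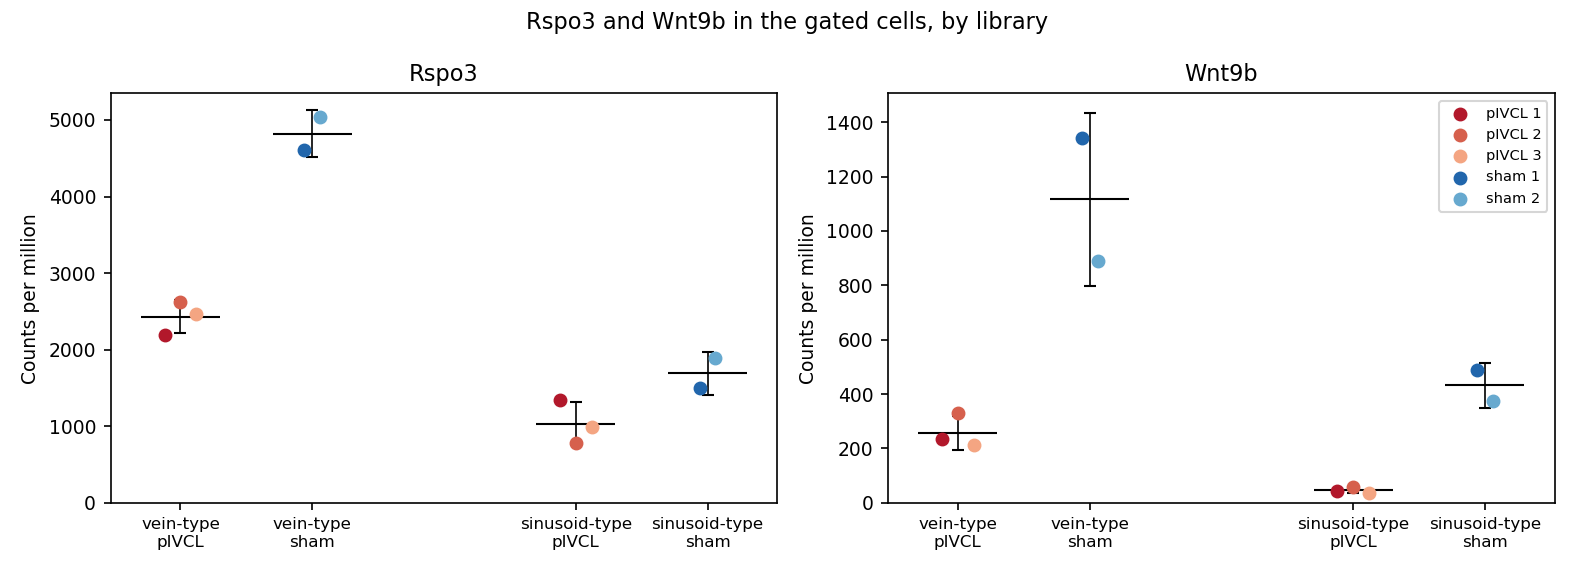
Rspo3 (left) and Wnt9b (right) in CPM by library, for vein-type and sinusoid-type gated cells of pIVCL and sham. Points are libraries, horizontal bars are group means and error bars are SD (n = 3 pIVCL and 2 sham libraries); in both cell sets the sham libraries lie above the pIVCL libraries for Wnt9b.

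Set against the other endothelial cells of the same library, the gated cells carried more transcripts of venous genes and fewer of sinusoidal and arterial genes. Of 9985 genes tested with library as a block, 1457 passed (14.6%), 751 higher (7.52%) and 706 lower (7.07%) in the gated cells. The gene lists had been chosen with earlier results of these data known, so their counts describe the cells and are no separate support. Of a list of large-vein genes 10 of 19 were higher and 1 lower, with a median log2 fold change of 0.84 against −0.0038 over all genes tested. Of the sinusoidal list 1 of 23 was higher and 18 were lower (median −0.68), and of the arterial and portal list 2 of 18 were higher and 10 lower (median −1.29). Of the angiogenic and tip cell list 5 of 23 were higher (Lamb1, Nid2, Igfbp3, Plau and Vegfa) and 10 lower (median −0.21). Of the other pericentral endothelial genes 7 of 13 were higher and 2 lower (median 1.11). The stellate and fibroblast list had 7 of 14 members higher and 0 lower (median 2.25), beside the stellate molecules given above. Of the lymphoid marker list 3 of 10 were higher (Nkg7, Cd3e and Cd3g) and 0 lower (median 1.20), and this list made up 0.00197 to 0.0398% of molecules in gated cells, against 0.00807 to 0.0223% in other endothelial cells. With foreign cells out, which did not filter the other endothelial cells, 915 genes passed, of which 773 were among the 1457 in the same direction. That fit does not use the lymphoid list, and beyond it the part of either list in the results was not tested.

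Among secreted signals and vein genes, Bmp4 stood at 400.4, 178 and 374 CPM in pIVCL and 192 and 240.2 CPM in sham gated cells, against 12.3, 9.52 and 27.4 CPM in pIVCL and 4.55 and 2.71 CPM in sham other endothelial cells (log2 fold change 4.88 ± 0.44, edgeR adjusted p = 0.00379). Lhx6, a LIM-homeodomain transcription factor, stood at 119, 86.9 and 134 CPM in pIVCL and 333 and 262 CPM in sham gated cells, against 6.98, 11.7 and 9.24 CPM in pIVCL and 18.6 and 12.3 CPM in sham other endothelial cells (log2 fold change 3.91 ± 0.22, edgeR adjusted p = 9.62e-06). Wnt2 stood at 253, 103 and 132 CPM in pIVCL and 494 and 431 CPM in sham gated cells, against 81.2, 44.1 and 40.9 CPM in pIVCL and 166 and 145 CPM in sham other endothelial cells (log2 fold change 1.54 ± 0.09, edgeR adjusted p = 1.65e-10). All 3 were higher in the gated cells of 5 of 5 libraries, and 24.1% of all genes tested had the same direction in 5 of 5. That was a condition for listing Bmp4 and Lhx6 among the largest differences, so it adds no support for them. Selp stood at 368, 202 and 283 CPM in pIVCL and 227 and 338 CPM in sham gated cells, against 25.8, 26.9 and 59.4 CPM in pIVCL and 8.22 and 8.06 CPM in sham other endothelial cells (log2 fold change 3.76 ± 0.59, edgeR adjusted p = 0.0222). The other endothelial cells held more Selp in each pIVCL library than in either sham library. Selp (3.75, edgeR adjusted p = 0.0922) no longer passed without pIVCL 1, Selp (4.02, 0.0659) without pIVCL 2, Selp (3.52, 0.0722) without sham 1, and Selp (3.41, 0.0534) without sham 2. Wnt2 (no library block) lost the call under other settings.

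Of the genes with the largest differences, Fmo2, a flavin monooxygenase, ranged over 229 to 393 CPM in the gated cells, against 4.82 to 14.8 CPM in the other endothelial cells (log2 fold change 4.93 ± 0.26, edgeR adjusted p = 9.11e-05). Entpd1, the ectonucleotidase CD39, ranged over 108 to 203 CPM in the gated cells, against 9.47 to 20.3 CPM in the other endothelial cells (log2 fold change 3.59 ± 0.25, edgeR adjusted p = 0.000172). Samd5, Prss23, Rbms3 and Plppr5 were also among the largest, with log2 fold changes of 4.51, 3.52, 3.36 and 3.03. Fgfr2, Tgfbi and Hand2 passed too, at 3.52, 3.02 and 3.00, and with foreign cells out Tgfbi was at 0.02 (edgeR adjusted p = 0.995). Hand2 is a transcription factor known from stellate cells. Vwf, the platelet-binding von Willebrand factor, was higher at a log2 fold change of 2.76 ± 0.38, as were the endothelin ligand Edn1 at 2.64 ± 0.39, the thrombomodulin gene Thbd at 1.22 ± 0.18 and the diaphragm gene Plvap at 1.49 ± 0.14. Vwf (2.63, edgeR adjusted p = 0.0552) and Edn1 (2.49, 0.0764) no longer passed without pIVCL 1, Edn1 (2.81, 0.0561) without pIVCL 2, and Vwf (2.67, 0.0601) and Edn1 (2.61, 0.0749) without sham 1. Prss23 (depth-matched), Fgfr2 (thinned gate, doublets out), Tgfbi (thinned gate, doublets out, foreign cells out, depth-matched), Hand2 (thinned gate, doublets out, depth-matched), Vwf (depth-matched), Thbd (depth-matched, no library block) and Plvap (no library block) lost the call under other settings.

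Lower in the gated cells was Msr1, a scavenger receptor, at 22.1 to 199.96 CPM in the gated cells, against 814 to 1256 CPM in the other endothelial cells (log2 fold change −3.30 ± 0.41, edgeR adjusted p = 0.0113). Efnb2, the arterial ligand ephrin-B2, was at 19.5 to 61.5 CPM in the gated cells, against 179 to 275 CPM in the other endothelial cells (log2 fold change −2.63 ± 0.18, edgeR adjusted p = 1.03e-05). Esm1, a secreted proteoglycan of angiogenic tip cells, was at 0 to 86.3 CPM in the gated cells, against 38.2 to 587 CPM in the other endothelial cells (log2 fold change −3.02 ± 0.24, edgeR adjusted p = 0.000294), and Angpt2, a Tie2 ligand of sprouting vessels, was lower by a log2 fold change of −1.41 ± 0.13. Slc45a4, Adam23, Adgrg6, Flrt1 and Efnb1 had the other large negative differences, at −3.36, −2.84, −2.35, −2.07 and −1.99. Among sinusoidal genes, Clec4g, a lectin, was at 985 to 2132 CPM in the gated cells, against 2747 to 3407 CPM in the other endothelial cells (log2 fold change −1.10 ± 0.11, edgeR adjusted p = 0.000528). The mannose receptor Mrc1 (log2 fold change −1.02), Stab2 (−0.67), and the hepatocyte iron-regulating ligands Bmp2 (−0.68) and Bmp6 (−0.80) were lower as well. The interferon list had 8 of 18 members lower and 0 higher, the immediate-early list 7 of 17 higher and 0 lower, and the cell-cycle list 0 of 14 in either direction. Adam23 (−2.98, edgeR adjusted p = 0.0579) and Efnb1 (−1.97, 0.103) no longer passed without pIVCL 2, Msr1 (−3.36, 0.0587), Adam23 (−2.79, 0.075) and Efnb1 (−1.99, 0.0959) without pIVCL 3, Msr1 (−3.29, 0.0508) without sham 1, and Msr1 (−3.22, 0.0517), Adam23 (−2.67, 0.0556) and Efnb1 (−2.02, 0.084) without sham 2. Esm1 (no library block), Angpt2 (no library block), Adgrg6 (depth-matched), Flrt1 (no library block), Mrc1 (no library block), Stab2 (no library block), Bmp2 (no library block) and Bmp6 (no library block) lost the call under other settings.

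**Figure D3:**
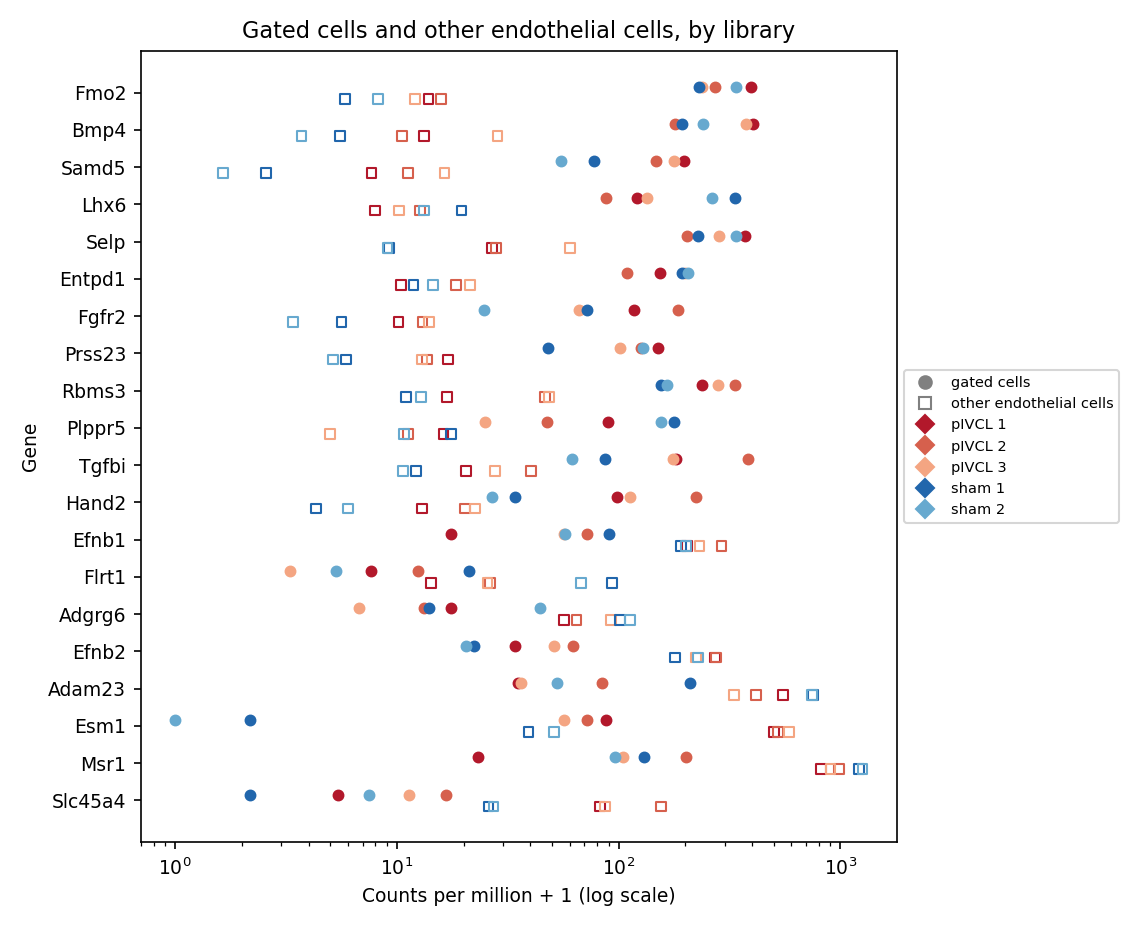
CPM plus 1 (x axis, log scale) of the genes with the largest differences (y axis) in gated cells (filled circles, upper) and other endothelial cells (open squares, lower), with 1 colour per library. Bmp4 lies right of the other endothelial cells in all 5 libraries, and Efnb2 lies left of them in all 5. The same direction in all 5 libraries was a condition for the genes shown.

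Within the gate, vein-type cells differed from sinusoid-type cells in genes that the split did not use. Of 4657 genes 403 passed (8.65%), 187 higher (4.02%) and 216 lower (4.64%) in vein-type cells. Cyp1b1, a cytochrome P450, ranged over 103 to 372 CPM in vein-type cells, against 1.61 to 26.5 CPM in sinusoid-type cells (log2 fold change 4.66 ± 0.34, edgeR adjusted p = 9.37e-10). Cd200, a ligand that restrains myeloid cells, ranged over 98.5 to 323 CPM in vein-type cells, against 1.58 to 17.6 CPM in sinusoid-type cells (log2 fold change 4.31 ± 0.41, edgeR adjusted p = 7.94e-08). Cd34, a sialomucin of large-vessel and capillarised endothelium, ranged over 53.2 to 232 CPM in vein-type cells, against 9.64 to 19.96 CPM in sinusoid-type cells (log2 fold change 3.15 ± 0.38, edgeR adjusted p = 1.28e-06). Glp1r, Nuak1, Car5b, Ctsh, Thsd7a, Mras and Tspan13 were also among the largest differences, with log2 fold changes of 4.13, 3.64, 3.23, 2.94, 2.93, 2.76 and 2.46. The elastic fibre genes Eln and Fbln2 passed at 3.93 and 2.84. Edn1 was higher by a log2 fold change of 2.28 ± 0.21, Icam1, a leukocyte adhesion molecule, by 0.87 ± 0.20, and Nos3, the endothelial nitric oxide synthase, by 0.83 ± 0.22. Nos3 (0.77, edgeR adjusted p = 0.0666) no longer passed without pIVCL 1, Eln (3.85, 0.169) and Fbln2 (2.79, 0.171) without pIVCL 2, Eln (3.82, 0.14) and Fbln2 (3.03, 0.12) without pIVCL 3, Nos3 (0.68, 0.137) without sham 1, and Fbln2 (2.74, 0.178) without sham 2. Eln (3.22) kept the call at another log2 fold change without sham 1. Eln (strict filter, doublets out), Fbln2 (no filter, strict filter, thinned gate, doublets out) and Nos3 (DESeq2, thinned gate) lost the call under other settings.

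Lower in vein-type cells were 11 of 15 sinusoidal genes outside the split and 0 were higher (median log2 fold change −1.34, against 0.0164 over all genes tested). Bmp2 ranged over 182 to 359 CPM in vein-type cells, against 905 to 2644 CPM in sinusoid-type cells (log2 fold change −2.63 ± 0.20, edgeR adjusted p = 1.05e-08). Lyve1, a hyaluronan receptor of sinusoids and lymphatics, ranged over 13.3 to 1604 CPM in vein-type cells, against 279 to 4735 CPM in sinusoid-type cells (log2 fold change −1.97 ± 0.24, edgeR adjusted p = 0.000104). Cldn5, the tight-junction claudin, ranged over 0 to 35.2 CPM in vein-type cells, against 92.7 to 402 CPM in sinusoid-type cells (log2 fold change −3.93 ± 0.51, edgeR adjusted p = 8.21e-05). Gatm, an enzyme of creatine synthesis, ranged over 0 to 28.1 CPM in vein-type cells, against 125 to 1415 CPM in sinusoid-type cells (log2 fold change −4.94 ± 0.36, edgeR adjusted p = 3.31e-09). All 4 were thus at higher levels in the sinusoid-type majority of the gate. Colec10, Mt2, Ifitm1 and Tlcd4 were lower by log2 fold changes of −5.58, −4.72, −4.12 and −3.94. In sinusoid-type cells Colec10 stood at 317, 917 and 456 CPM in pIVCL and 61.4 and 47.1 CPM in sham. Ifitm1 and Tlcd4 were also highest in pIVCL 2 and lowest in sham, as were the stellate molecules of gated cells, whereas Mt2 was highest in sham. This comparison was not run with foreign cells out, so the part of stellate molecules in it was not tested. Adam23 had 0 molecules in vein-type cells and was at least 20.2-fold lower, taking 3 molecules over all vein-type cells as the limit, and Cntfr was 32.7-fold lower (95% counting interval 8.98 to 271). The stellate list, of which 7 members were tested, had 0 higher and 2 lower in vein-type cells. Ifitm1 (−3.32) and Tlcd4 (−3.33) kept the call at another log2 fold change without pIVCL 2, Cldn5 (−5.45) and Cntfr (−8.73) without pIVCL 3, and Cldn5 (−3.20), Gatm (−4.21), Colec10 (−6.55), Ifitm1 (−5.93), Tlcd4 (−5.00) and Adam23 (−7.65) without sham 1. Tlcd4 (doublets out) lost the call under other settings.

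After pIVCL the gated cells carried fewer transcripts of pericentral genes and of the anticoagulant gene Thbd, and more of Lyve1, of sprouting and basement membrane genes and of cell-cycle genes. Cells of the 2 groups entered the gate by different genes. Wnt9b was detected in 18.8, 25.8 and 19.0% of gated pIVCL cells and 77.0 and 65.4% of gated sham cells. The part of this in the differences below was not tested. Of 8809 genes 403 passed (4.57%), with 186 higher (2.11%) and 217 lower (2.46%) in pIVCL. Without pIVCL 1, pIVCL 2 or pIVCL 3 the count was 769, 365 and 230, and without sham 1 or sham 2 it was 76 and 159. Beside these counts stand the stellate molecules, 0.298, 0.876 and 0.375% of gated molecules in pIVCL and 0.130 and 0.0763% in sham, and 3 of 16 members of that list rose and 0 fell (median 2.51). With foreign cells out (183 pIVCL and 50 sham cells), 399 genes passed, of which 270 were among the 403 in the same direction. The hepatocyte list had 1 of 21 members higher and 0 lower (median 1.39), at 0.128, 0.236 and 0.147% of gated molecules in pIVCL and 0.112 and 0.0560% in sham. With batch as a term 203 genes passed, of which 154 were among the 403 in the same direction. Within batch 2021.3 alone 516 passed, a count that rests on 1 pIVCL library and on the spread of 2 sham libraries.

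Of 14 tested members of the pericentral endothelial list outside the rule, 9 fell and 1, Pcdh17, rose (median log2 fold change −1.46, against −0.0029 over all genes tested). Over all endothelial cells, where the rule does not use Rspo3 or Wnt9b, 6 of 14 fell and 2 rose (median −1.12). Thbd, whose protein thrombomodulin turns thrombin into an anticoagulant, stood at 94.8, 75.9 and 79.2 CPM in pIVCL, against 536 and 422 CPM in sham gated cells (log2 fold change −2.53 ± 0.20, edgeR adjusted p = 5.72e-05). Slco2a1, the prostaglandin uptake transporter, stood at 109, 61.7 and 78.1 CPM in pIVCL, against 559 and 381 CPM in sham gated cells (log2 fold change −2.52 ± 0.25, edgeR adjusted p = 0.000392). Gatm stood at 201, 149 and 90.9 CPM in pIVCL, against 1078 and 691 CPM in sham gated cells (log2 fold change −2.59 ± 0.32, edgeR adjusted p = 0.00338). The pIVCL libraries lay below both sham libraries for each of these 3 genes, and 37.6% of all genes tested had no overlap between the groups. Lack of overlap was a condition for listing Thbd and Gatm among the largest falls, so it adds no support for them. Kit, the stem cell factor receptor of pericentral sinusoids, stood at 132, 57.5 and 96.7 CPM in pIVCL, against 673 and 418 CPM in sham gated cells (log2 fold change −2.54 ± 0.34, edgeR adjusted p = 0.00569). Rab3b, a vesicle traffic GTPase, and Ramp3, the adrenomedullin receptor partner, fell by 4.74 ± 0.62 and 4.30 ± 0.65 on the log2 scale. Lhx6 fell by 1.41 ± 0.22. Thbd, Slco2a1, Gatm and Kit were at −2.34, −2.11, −2.14 and −2.06 within batch 2021.3 alone (log2 fold change, pIVCL 1 against both sham libraries). Kit (−2.14, edgeR adjusted p = 0.0587), Rab3b (−4.08, 0.182), Ramp3 (−4.17, 0.167) and Lhx6 (−1.21, 0.0858) no longer passed without sham 1. Ramp3 (−5.00) kept the call at another log2 fold change without pIVCL 1. Gatm (gate at 3) lost the call under other settings.

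Of the Wnt pathway list 1 of 9 tested members passed, the co-receptor gene Lrp6 (log2 fold change −1.19 ± 0.22). Wnt2 stood at 256, 105 and 135 CPM in pIVCL, against 502 and 438 CPM in sham gated cells, with no overlap between the groups, as in 37.6% of all genes tested, and missed the threshold (log2 fold change −1.52 ± 0.34, edgeR adjusted p = 0.0513). It passed under 11 of the 16 alternatives tried. Frzb, a secreted Wnt antagonist outside that list, rose and stood at 146, 106 and 142 CPM in pIVCL, against 8.38 and 6.60 CPM in sham gated cells (log2 fold change 4.06 ± 0.34, edgeR adjusted p = 0.000109). Bmp4 stood at 404, 181 and 382 CPM in pIVCL, against 195 and 244 CPM in sham gated cells and did not pass (log2 fold change 0.56 ± 0.34, edgeR adjusted p = 0.449). With foreign cells out it passed, at 0.95 (edgeR adjusted p = 0.0142). Selp stood at 372, 206 and 289 CPM in pIVCL, against 229.9 and 343 CPM in sham gated cells, with overlapping groups (log2 fold change 0.02 ± 0.27, edgeR adjusted p = 0.983). Wnt2, Frzb, Bmp4 and Selp were at −0.88, 4.22, 0.90 and 0.40 within batch 2021.3 alone (log2 fold change, pIVCL 1 against both sham libraries). Lrp6 (−1.08, edgeR adjusted p = 0.0513) no longer passed without pIVCL 3, Lrp6 (−1.15, 0.138) without sham 1, and Lrp6 (−1.22, 0.0622) without sham 2. Wnt2 (−1.96, edgeR adjusted p = 0.000156) passed without pIVCL 1, and Wnt2 (−1.26, edgeR adjusted p = 0.0233) and Bmp4 (0.86, edgeR adjusted p = 0.0342) without pIVCL 2. Lrp6 (thinned gate, batch term) lost the call under other settings. Wnt2 (DESeq2 scaling, no filter, DESeq2, strict filter, thinned gate, gate at 3, foreign cells out, batch 2021.3) and Bmp4 (foreign cells out, batch 2021.3) passed under other settings.

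Of 23 tested members of the sinusoidal list 7 fell and 2 rose (median log2 fold change −0.58). Plxnc1, a semaphorin receptor, stood at 232, 178 and 150.3 CPM in pIVCL, against 978 and 794 CPM in sham gated cells (log2 fold change −2.25 ± 0.21, edgeR adjusted p = 0.000236). Mrc1 stood at 684, 573 and 605 CPM in pIVCL, against 1744 and 1469 CPM in sham gated cells (log2 fold change −1.37 ± 0.18, edgeR adjusted p = 0.00121). Bmp2, which signals iron status to hepatocytes, stood at 1059.9, 940.2 and 696 CPM in pIVCL, against 1847 and 2037 CPM in sham gated cells (log2 fold change −1.11 ± 0.20, edgeR adjusted p = 0.00973). In the other direction, Lyve1 stood at 2373, 3864 and 3669 CPM in pIVCL, against 214 and 213 CPM in sham gated cells (log2 fold change 3.95 ± 0.27, edgeR adjusted p = 2.25e-05). Cd36, a fatty acid and thrombospondin receptor, stood at 1185, 1193 and 1409.9 CPM in pIVCL, against 336 and 293 CPM in sham gated cells (log2 fold change 2.00 ± 0.20, edgeR adjusted p = 0.000253). For both genes the lowest pIVCL library was above the highest sham library. Of all genes tested 37.6% had no overlap, which was a condition for listing Lyve1 among the largest rises. Clec4g stood at 1458, 1504 and 1006 CPM in pIVCL, against 2163 and 1639 CPM in sham gated cells and did not pass (log2 fold change −0.52 ± 0.22, edgeR adjusted p = 0.229), and Stab2 passed at −0.75 (edgeR adjusted p = 0.04998). Plxnc1, Mrc1, Bmp2, Lyve1, Cd36 and Clec4g were at −1.93, −1.23, −0.87, 3.48, 1.91 and −0.38 within batch 2021.3 alone (log2 fold change, pIVCL 1 against both sham libraries). Stab2 (−0.71, edgeR adjusted p = 0.0946) no longer passed without pIVCL 2, Stab2 (−0.70, 0.176) without pIVCL 3, Bmp2 (−1.17, 0.109) and Stab2 (−0.49, 0.496) without sham 1, and Bmp2 (−1.05, 0.105) and Stab2 (−0.97, 0.0886) without sham 2. Bmp2 (batch term) and Stab2 (thinned gate, gate at 3, doublets out, batch term, batch 2021.3) lost the call under other settings. Clec4g (foreign cells out) passed under other settings.

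Several genes of sprouting vessels rose. Of 21 tested members of the angiogenic and tip cell list 8 rose and 2 fell (median log2 fold change 1.36). Angpt2 stood at 71.4, 93.4 and 79.2 CPM in pIVCL, against 4.79 and 17.6 CPM in sham gated cells (log2 fold change 3.06 ± 0.43, edgeR adjusted p = 0.00184). Dll4, the Notch ligand of tip cells and arteries, stood at 155, 168 and 195 CPM in pIVCL, against 43.1 and 39.6 CPM in sham gated cells (log2 fold change 2.05 ± 0.23, edgeR adjusted p = 0.000519). Plau, the urokinase plasminogen activator, stood at 551, 397 and 477 CPM in pIVCL, against 130.5 and 112 CPM in sham gated cells (log2 fold change 1.96 ± 0.22, edgeR adjusted p = 0.000464). In all 3 the pIVCL libraries lay above both sham libraries, and 37.6% of all genes tested had no overlap between the groups. Esm1 had 214 molecules in gated pIVCL cells and 1 in gated sham cells, a ratio of 94.95 per molecule sequenced (95% counting interval 16.9 to 3768). Adm, the vasodilator adrenomedullin, rose by 2.55 ± 0.35 and Pdgfb, the pericyte-recruiting growth factor, by 1.38 ± 0.23 on the log2 scale. Angpt2, Dll4 and Plau were at 2.87, 1.895 and 2.17 within batch 2021.3 alone (log2 fold change, pIVCL 1 against both sham libraries). Adm (2.01, edgeR adjusted p = 0.0505) and Pdgfb (1.47, 0.0853) no longer passed without sham 1, and Pdgfb (1.31, 0.0606) without sham 2. Angpt2 (2.21) and Esm1 (8.95) kept the call at another log2 fold change without sham 1, and Angpt2 (4.05) without sham 2.

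In the list of basement membrane and matrix genes 7 of 20 tested rose and 2 fell (median 0.76). Fbln2, a fibulin of vessel walls, stood at 914, 768 and 1016 CPM in pIVCL, against 305 and 196 CPM in sham gated cells (log2 fold change 1.83 ± 0.23, edgeR adjusted p = 0.00117). With foreign cells out Fbln2 was at 2.75. Col4a2, a chain of basement membrane collagen, stood at 682, 1037 and 964 CPM in pIVCL, against 381 and 288 CPM in sham gated cells (log2 fold change 1.41 ± 0.23, edgeR adjusted p = 0.00476). Fn1, fibronectin, stood at 50.2, 138 and 95.5 CPM in pIVCL, against 4.79 and 6.60 CPM in sham gated cells (log2 fold change 4.09 ± 0.60, edgeR adjusted p = 0.00616). All pIVCL libraries lay above both sham libraries for these 3 genes. Of all genes tested 37.6% had no overlap, which was a condition for listing Fn1 among the largest rises. Lama1, a laminin chain, had 156 molecules in gated pIVCL cells and 2 in gated sham cells, a ratio of 34.6 (9.42 to 288). It stood at 25.7, 84.2 and 37.3 CPM in pIVCL. Lama1, Fn1 and Col4a2 were highest in pIVCL 2, the library with the highest share of gated cells (34.7%) that held at least 3 stellate and fibroblast molecules. Fbln2 was lowest there among the pIVCL libraries. Beyond the fit with foreign cells out, the part of stellate molecules in these rises was not tested. Eln, elastin, stood at 34.6, 30.01 and 32.6 CPM in pIVCL, against 158 and 134 CPM in sham gated cells (log2 fold change −2.18 ± 0.22, edgeR adjusted p = 0.000297). With foreign cells out Eln was at −0.71 (edgeR adjusted p = 0.325). Col13a1, a membrane collagen, fell and stood at 17.9, 30.8 and 36.1 CPM in pIVCL, against 322 and 174 CPM in sham gated cells (log2 fold change −3.14 ± 0.32, edgeR adjusted p = 0.000715). Fbln2, Col4a2, Fn1, Eln and Col13a1 were at 1.85, 1.02, 3.16, −2.08 and −3.81 within batch 2021.3 alone (log2 fold change, pIVCL 1 against both sham libraries). Col4a2 (1.64, edgeR adjusted p = 0.0555), Fn1 (3.84, 0.203) and Lama1 (8.42, 0.247) no longer passed without sham 1, and Col4a2 (1.22, 0.0864), Fn1 (4.27, 0.0749) and Lama1 (4.30, 0.18) without sham 2. Lama1 (4.23) kept the call at another log2 fold change without pIVCL 2. Fn1 (thinned gate, doublets out), Lama1 (doublets out, batch term) and Eln (foreign cells out) lost the call under other settings.

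Of 19 tested large-vein genes 3 rose and 6 fell (median −0.26). Vwf stood at 238, 108 and 155 CPM in pIVCL, against 363 and 414 CPM in sham gated cells (log2 fold change −1.22 ± 0.29, edgeR adjusted p = 0.0477). Plvap stood at 1384, 1927 and 1757 CPM in pIVCL, against 755 and 834 CPM in sham gated cells (log2 fold change 1.09 ± 0.20, edgeR adjusted p = 0.0107). The pIVCL libraries were below both sham libraries for Vwf and above them for Plvap, and 37.6% of all genes tested had no overlap. Of 16 tested arterial and portal genes 4 rose and 1 fell (median 0.46). Clu, the secreted chaperone clusterin, rose by 1.78 ± 0.26 on the log2 scale. Gja4, connexin 37 of arterial gap junctions, stood at 29.0, 81.7 and 30.3 CPM in pIVCL, against 348 and 286 CPM in sham gated cells (log2 fold change −2.71 ± 0.43, edgeR adjusted p = 0.0214). Vwf, Plvap and Gja4 were at −0.70, 0.81 and −3.45 within batch 2021.3 alone (log2 fold change, pIVCL 1 against both sham libraries). Vwf (−1.17, edgeR adjusted p = 0.157) no longer passed without pIVCL 3, Vwf (−1.31, 0.242), Plvap (1.03, 0.213) and Gja4 (−2.55, 0.247) without sham 1, and Vwf (−1.13, 0.274), Plvap (1.15, 0.102) and Gja4 (−2.86, 0.154) without sham 2. Gja4 (−3.41) kept the call at another log2 fold change without pIVCL 2. Vwf (doublets out, foreign cells out, batch term, batch 2021.3), Plvap (thinned gate, batch term), Clu (thinned gate, foreign cells out) and Gja4 (thinned gate, doublets out) lost the call under other settings.

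Genes of junctions, of membrane domains and of vessel tone also moved. Cldn5 stood at 73.6, 100.02 and 97.9 CPM in pIVCL, against 305 and 235 CPM in sham gated cells (log2 fold change −1.58 ± 0.21, edgeR adjusted p = 0.00121). Tbxa2r, the thromboxane receptor, stood at 13.4, 8.34 and 10.49 CPM in pIVCL, against 63.5 and 72.6 CPM in sham gated cells (log2 fold change −2.66 ± 0.33, edgeR adjusted p = 0.00101). Cav1, the caveola coat protein, stood at 37.9, 20.8 and 16.3 CPM in pIVCL, against 109 and 96.8 CPM in sham gated cells (log2 fold change −2.05 ± 0.32, edgeR adjusted p = 0.00366). These 3 genes fell. The potassium channel genes Kcnj8 and Abcc9, subunits of 1 channel, rose by 3.999 ± 0.65 and 1.76 ± 0.28 on the log2 scale. Of the junction and channel list 2 of 14 rose and 3 fell, and of the vasoactive and prostaglandin list 2 of 16 rose and 3 fell. Of the flow-responsive list 1 of 14 rose and 3 fell, and of the coagulation list 1 of 12 rose and 3 fell. Nos3 stood at 92.6, 67.5 and 107 CPM in pIVCL, against 160.4 and 145 CPM in sham gated cells and did not pass (log2 fold change −0.79 ± 0.23, edgeR adjusted p = 0.0781). Cldn5, Tbxa2r, Cav1 and Nos3 were at −1.88, −2.31, −1.44 and −0.72 within batch 2021.3 alone (log2 fold change, pIVCL 1 against both sham libraries). Cav1 (−1.94, edgeR adjusted p = 0.0859) and Kcnj8 (3.54, 0.184) no longer passed without sham 1, and Abcc9 (1.55, 0.0553) without sham 2. Abcc9 (thinned gate, gate at 3, doublets out) lost the call under other settings. Nos3 (no filter) passed under other settings.

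Of the BMP and TGF-beta list 2 of 20 rose and 1 fell (median 0.046). Inhbb, a subunit of activin, stood at 164, 253 and 296 CPM in pIVCL, against 50.3 and 28.6 CPM in sham gated cells (log2 fold change 2.52 ± 0.33, edgeR adjusted p = 0.00184). The others were the BMP9 gene Gdf2, which rose, and Bmp2, which fell. Of the YAP and TEAD target list 2 of 12 rose and 0 fell. Ccn2, a matricellular target gene of YAP, stood at 2875, 1114 and 2024 CPM in pIVCL, against 220.3 and 341 CPM in sham gated cells (log2 fold change 2.85 ± 0.46, edgeR adjusted p = 0.0219). Ajuba was the other. Ackr4, a scavenger of lymphoid chemokines, stood at 17.9, 12.5 and 4.66 CPM in pIVCL, against 162 and 117 CPM in sham gated cells (log2 fold change −3.56 ± 0.36, edgeR adjusted p = 0.000392). Slc26a10 and Tiam1, an activator of the GTPase Rac, had other large falls, at −4.38 ± 0.29 and −3.98 ± 0.38. The interferon list had 1 of 18 members higher and 0 lower, the hypoxia list 1 of 14 higher and 1 lower, the immediate-early list 1 of 17 higher and 0 lower, and the adhesion and chemokine list 1 of 15 higher and 1 lower. Passing genes from these and other lists, each with a call that ended under at least 1 alternative, were Gdf2 (3.01), Ajuba (2.47), Rtn1 (4.05), Adgrg1 (−2.81), Ifi44 (1.27), Vegfa (−1.53), Fosl2 (2.04), Cxcl9 (1.71), Galnt15 (1.96), Nqo1 (−1.72) and Gas6 (−1.43). The settings that ended these calls are not listed here. Gdf2, Rtn1, Ifi44 and Cxcl9 were highest in pIVCL 2, as were the stellate molecules of gated cells. Ajuba, Fosl2 and Galnt15 were highest in pIVCL 1. Beyond the fit with foreign cells out, the part of stellate molecules here was not tested. Inhbb, Ccn2 and Ackr4 were at 1.98, 3.38 and −2.97 within batch 2021.3 alone (log2 fold change, pIVCL 1 against both sham libraries). Ccn2 (2.84, edgeR adjusted p = 0.0729) no longer passed without pIVCL 3, Ccn2 (2.56, 0.158) without sham 1, and Ccn2 (3.18, 0.0754) without sham 2. Ccn2 (strict filter, thinned gate, doublets out, foreign cells out) lost the call under other settings.

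**Figure D4:**
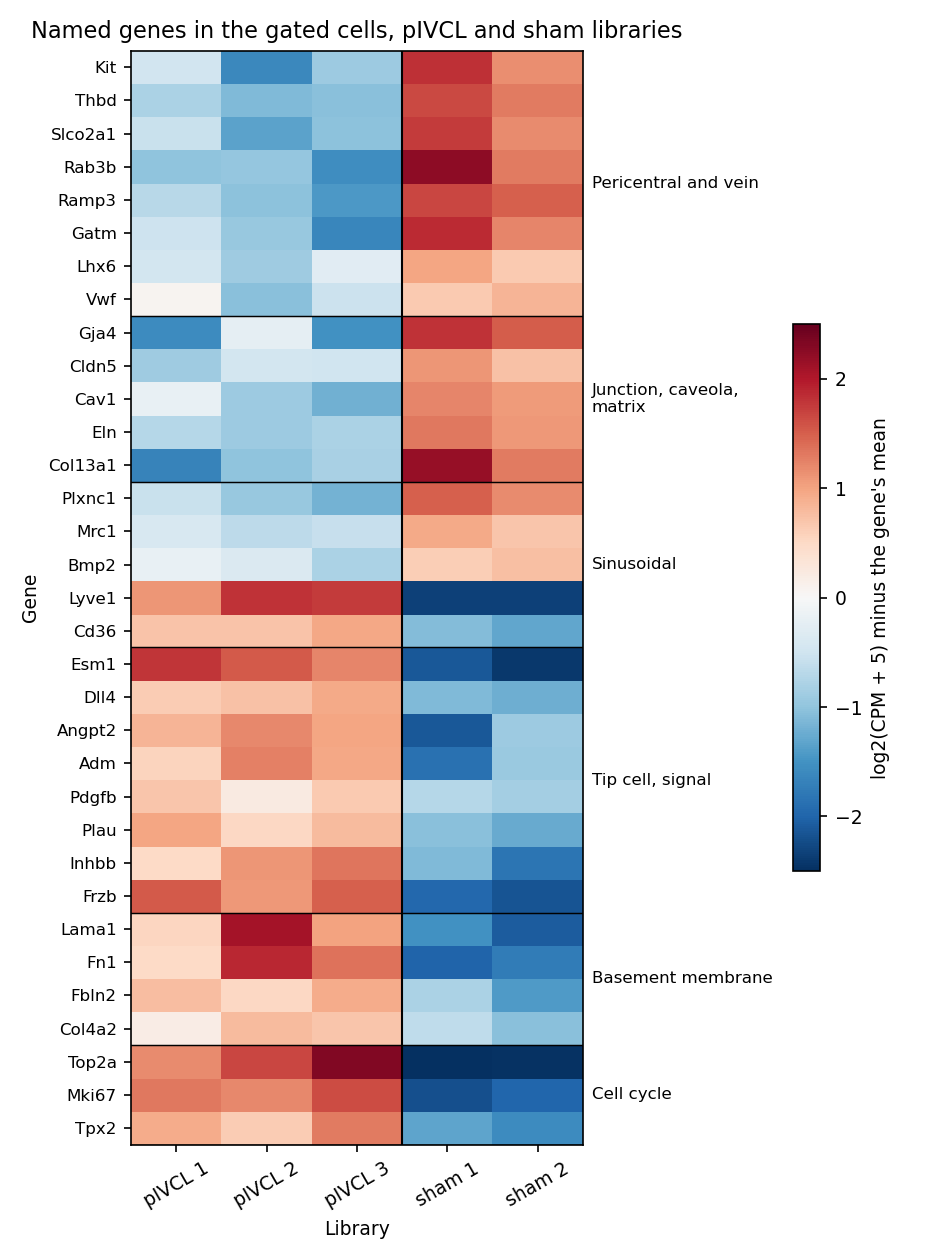
Named genes (rows, grouped by list) in gated cells of the 3 pIVCL and 2 sham libraries (columns), as log2(CPM + 5) minus the mean of the gene over the 5 libraries, with colours capped at 2.5 in either direction. Thbd and Slco2a1 are below their mean in each pIVCL library, and Lyve1 and Angpt2 are above it.

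Cell-cycle genes rose in the gated cells. Of 12 tested, 9 rose and 0 fell (median log2 fold change 4.26). Top2a, the replication topoisomerase, had 390 molecules in gated pIVCL cells and 2 in gated sham cells, a ratio of 86.5 per molecule sequenced (95% counting interval 23.8 to 717). Mki67, the proliferation marker, had 202 and 2 in pIVCL and sham, a ratio of 44.8 (12.2 to 373). Tpx2 rose by 3.52 ± 0.55 on the log2 scale, and Pclaf had 139 molecules in gated pIVCL cells and 1 in gated sham cells. Cells with at least 5 molecules of 15 cell-cycle genes were 15, 15 and 9 of the gated pIVCL cells (11.3, 8.98 and 7.44%), against 3 and 0 of the gated sham cells (1.97 and 0%, where 0 of 81 cells allows up to 3.70%). The other endothelial cells had 2.82, 3.90 and 3.17% in pIVCL and 2.58 and 2.91% in sham. Thinned to 2000 molecules and with at least 3 of them from these genes, the gated shares were 4.51, 4.85 and 5.13% in pIVCL and 0.658 and 0% in sham. Of the 39 cycling gated pIVCL cells, 4 were vein-type, 35 were sinusoid-type and 13 carried at least 3 stellate molecules. Each pIVCL library was above both sham libraries in either count. With the rule applied after thinning, Top2a was at 4.81 (edgeR adjusted p = 0.524) and Mki67 at 3.52 (0.33). Top2a (5.84, edgeR adjusted p = 0.0508), Tpx2 (3.99, 0.0674) and Pclaf (8.32, 0.324) no longer passed without sham 1, and Pclaf (5.13, 0.237) without sham 2. Top2a (thinned gate), Mki67 (thinned gate), Tpx2 (thinned gate) and Pclaf (thinned gate, gate at 3, batch 2021.3) lost the call under other settings.

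In the vein-type cells alone, nearest to the label, pIVCL and sham differed in fewer genes, from 20, 21 and 25 cells in pIVCL and 25 and 15 in sham. Of 3140 genes 62 passed (1.97%), 34 higher (1.08%) and 28 lower (0.892%) in pIVCL. The count was 145, 60 and 40 without pIVCL 1, pIVCL 2 or pIVCL 3, and 16 and 46 without sham 1 or sham 2. Lyve1 stood at 903, 1752 and 1609 CPM in pIVCL, against 18.2 and 14.5 CPM in sham vein-type cells (log2 fold change 6.31 ± 0.52, edgeR adjusted p = 1.55e-05). It had 468 molecules in vein-type pIVCL cells and 3 in vein-type sham cells, a ratio of 86.7 (95% counting interval 29.5 to 422). Col4a2 stood at 634, 891 and 943 CPM in pIVCL, against 118 and 72.3 CPM in sham vein-type cells (log2 fold change 3.05 ± 0.37, edgeR adjusted p = 0.000651). Its partner chain Col4a1 stood at 1566, 1608 and 2267 CPM in pIVCL, against 527 and 202 CPM in sham vein-type cells (log2 fold change 2.27 ± 0.37, edgeR adjusted p = 0.00475). Sparc, a collagen-binding matrix protein, stood at 2210.3, 3053 and 4566 CPM in pIVCL, against 728 and 333 CPM in sham vein-type cells (log2 fold change 2.60 ± 0.39, edgeR adjusted p = 0.00382). Basement membrane genes thus rose in these cells too, 3 of 11 tested with 1 lower. Lyve1, Col4a2, Col4a1 and Sparc were at 5.66, 2.67, 2.05 and 2.03 within batch 2021.3 alone (log2 fold change, pIVCL 1 against both sham libraries). Col4a1 (3.15) and Sparc (3.29) kept the call at another log2 fold change without sham 1.

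Inhbb stood at 231, 430.2 and 301 CPM in pIVCL, against 18.2 and 28.9 CPM in sham vein-type cells (log2 fold change 3.76 ± 0.57, edgeR adjusted p = 0.00343). Frzb stood at 327, 399.5 and 293 CPM in pIVCL, against 54.6 and 28.9 CPM in sham vein-type cells (log2 fold change 2.90 ± 0.46, edgeR adjusted p = 0.00393). Oit3, a sinusoidal surface protein, stood at 1009, 738 and 959 CPM in pIVCL, against 191 and 130.2 CPM in sham vein-type cells (log2 fold change 2.45 ± 0.34, edgeR adjusted p = 0.00185). With Lyve1 and Cd36, Oit3 was 1 of 3 sinusoidal genes of 14 tested that rose, and 0 fell. Of 12 angiogenic genes 3 rose and 0 fell, namely Apln, the apelin ligand of tip cells (2.79 ± 0.61), Plau (2.12 ± 0.38) and Trp53i11 (2.48 ± 0.45). Nrarp, a Notch target gene, rose by 2.93 ± 0.65 and Fscn1, an actin-bundling protein, by 3.43 ± 0.54 on the log2 scale. Stmn1, a tubulin-binding protein of dividing cells, had 0 molecules in vein-type sham cells and was at least 10.9-fold higher in pIVCL, taking 3 molecules over the group as the limit. Arrdc3 and Id4 had ratios of 15.0 (3.96 to 127) and 13.9 (3.65 to 118). Inhbb, Frzb and Oit3 were at 3.29, 2.86 and 2.62 within batch 2021.3 alone (log2 fold change, pIVCL 1 against both sham libraries). Cd36 (1.24, edgeR adjusted p = 0.123), Apln (2.25, 0.115) and Nrarp (2.69, 0.0845) no longer passed without pIVCL 3, Cd36 (1.06, 0.438), Apln (2.43, 0.285), Plau (1.83, 0.18), Trp53i11 (2.29, 0.18), Nrarp (2.19, 0.333), Fscn1 (3.38, 0.0518), Stmn1 (7.17, 0.094), Arrdc3 (3.35, 0.272) and Id4 (3.27, 0.295) without sham 1, and Cd36 (1.60, 0.108), Apln (3.06, 0.0575), Arrdc3 (3.96, 0.0644) and Id4 (3.87, 0.0925) without sham 2. Nrarp (3.78) kept the call at another log2 fold change without sham 2. Cd36 (DESeq2, strict filter, batch term), Apln (DESeq2, batch term, batch 2021.3), Arrdc3 (DESeq2, batch term, batch 2021.3) and Id4 (DESeq2) lost the call under other settings.

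Among genes that fell in vein-type cells, Gja4 had 3 molecules in pIVCL and 61 in sham, 36.6-fold lower in pIVCL per molecule sequenced (95% counting interval 11.9 to 182). Slc26a10 was 44.1-fold lower (11.6 to 374). The chemokine gene Ccl5 had 1 molecule in pIVCL and 51 in sham, 91.8-fold lower (15.8 to 3695), at 146 and 506 CPM in the sham libraries. Fndc1 was 51.3-fold lower (13.6 to 434), and AU021092 fell by 2.58 ± 0.48 on the log2 scale. Of the lymphoid marker list 0 of 2 tested members passed. Whether Ccl5 came from other cells was not tested. Calls of Ccl5, Fndc1 and AU021092 under other settings are not listed here. Slco2a1 stood at 183, 154 and 151 CPM in pIVCL, against 427 and 477 CPM in sham vein-type cells (log2 fold change −1.47 ± 0.32, edgeR adjusted p = 0.0242). Cav1 stood at 57.7, 51.2 and 63.4 CPM in pIVCL, against 355 and 246 CPM in sham vein-type cells (log2 fold change −2.38 ± 0.41, edgeR adjusted p = 0.00688). Cgnl1, a tight-junction adaptor, stood at 86.5, 92.2 and 71.3 CPM in pIVCL, against 437 and 318 CPM in sham vein-type cells (log2 fold change −2.19 ± 0.37, edgeR adjusted p = 0.00654). The pIVCL libraries lay below both sham libraries for Slco2a1, Cav1 and Cgnl1, and 32.3% of all genes tested did not overlap between the groups. Lack of overlap was a condition for listing Cav1 and Cgnl1 among the largest falls. Podxl, a sialomucin of the luminal surface, Ntn1, the guidance ligand netrin 1, Bhlhe40 and Car8 fell by 2.31 ± 0.43, 3.06 ± 0.63, 2.22 ± 0.49 and 1.83 ± 0.33 on the log2 scale. Thbd stood at 221, 225 and 159 CPM in pIVCL, against 527 and 333 CPM in sham vein-type cells and did not pass (log2 fold change −1.12 ± 0.33, edgeR adjusted p = 0.119). Wnt2 stood at 221, 184 and 135 CPM in pIVCL, against 446 and 260.3 CPM in sham vein-type cells and did not pass either (log2 fold change −1.01 ± 0.36, edgeR adjusted p = 0.221). Ccn2 stood at 4248, 1782 and 3948 CPM in pIVCL, against 964 and 1461 CPM in sham vein-type cells and missed the threshold (log2 fold change 1.46 ± 0.36, edgeR adjusted p = 0.0563), which it passed under 6 of the 15 alternatives tried. Slco2a1, Cav1, Cgnl1, Thbd, Wnt2 and Ccn2 were at −1.29, −2.37, −2.12, −0.97, −0.70 and 1.83 within batch 2021.3 alone (log2 fold change, pIVCL 1 against both sham libraries). Slco2a1 (−1.43, edgeR adjusted p = 0.0642) and Bhlhe40 (−2.24, 0.0729) no longer passed without pIVCL 2, Slco2a1 (−1.40, 0.114) and Bhlhe40 (−1.83, 0.11) without pIVCL 3, Slc26a10 (−4.99, 0.192), Slco2a1 (−1.56, 0.18), Cav1 (−2.07, 0.192), Cgnl1 (−1.93, 0.148), Podxl (−1.96, 0.277), Ntn1 (−2.85, 0.56) and Bhlhe40 (−2.20, 0.237) without sham 1, and Slco2a1 (−1.41, 0.147), Ntn1 (−3.26, 0.0644), Bhlhe40 (−2.25, 0.0644) and Car8 (−1.66, 0.0563) without sham 2. Ccn2 (1.77, edgeR adjusted p = 0.00948) passed without pIVCL 2. Slco2a1 (DESeq2, batch term, batch 2021.3), Podxl (batch term), Ntn1 (strict filter), Bhlhe40 (DESeq2, thinned gate, batch term, batch 2021.3) and Car8 (batch term, batch 2021.3) lost the call under other settings. Thbd (strict filter) and Ccn2 (no filter, DESeq2, thinned gate, doublets out, batch 2021.3) passed under other settings.

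The genes that defined the vein-type cells are given without a test. Bmp4 stood at 1662, 1229 and 1617 CPM in pIVCL, against 1128 and 897 CPM in sham vein-type cells. Vwf stood at 999, 953 and 848 CPM in pIVCL, against 2119 and 2068 CPM in sham vein-type cells. Selp stood at 653, 584 and 698 CPM in pIVCL, against 709 and 622 CPM in sham vein-type cells. Bmp4 was thus higher and Vwf lower in every pIVCL library, and Selp overlapped. Of all genes tested in vein-type cells 32.3% had no overlap.

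**Figure D5:**
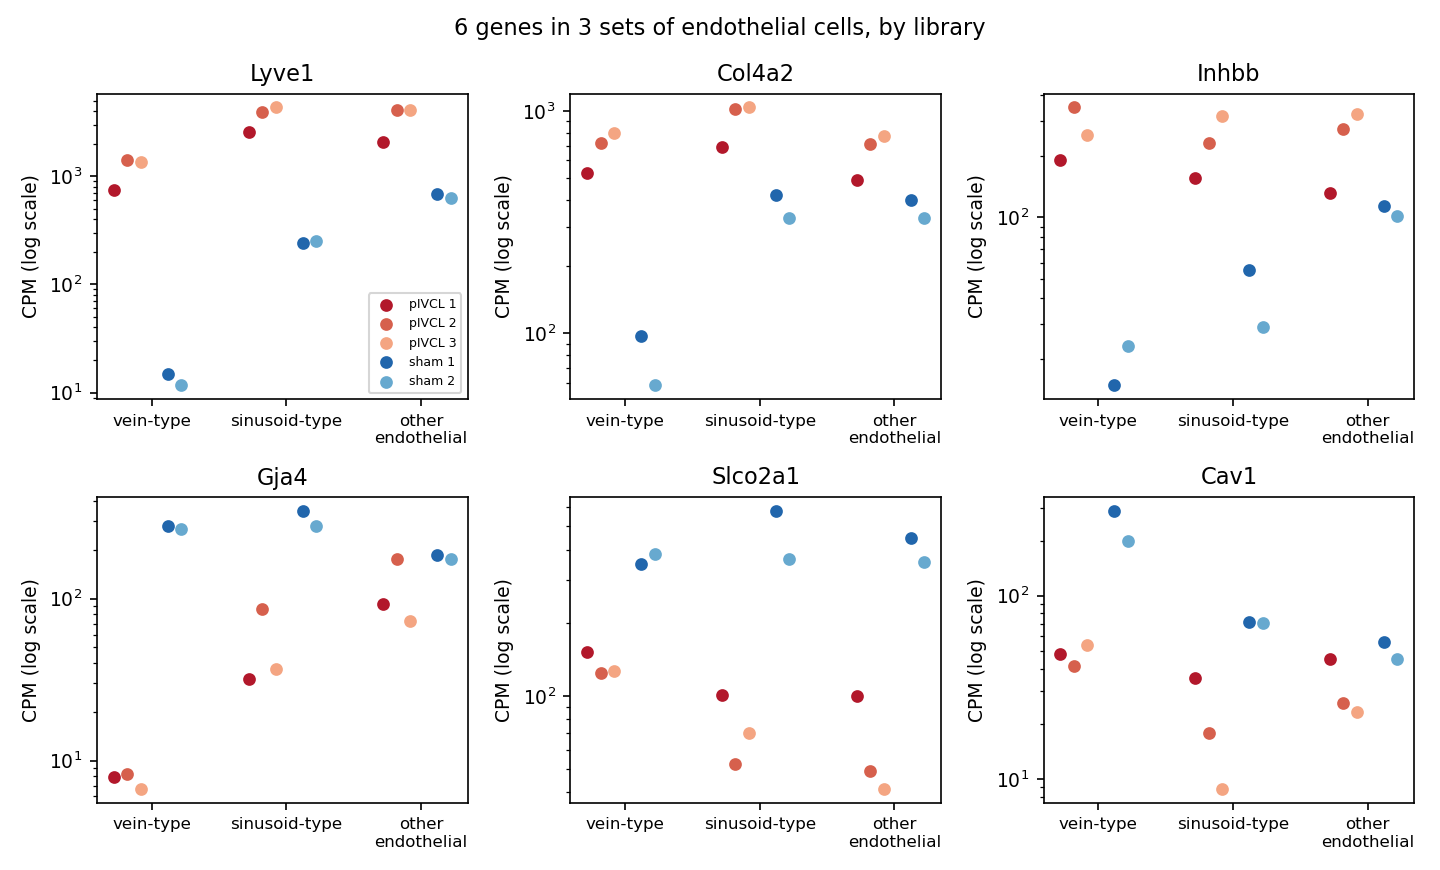
Lyve1, Col4a2, Inhbb, Gja4, Slco2a1 and Cav1 in CPM without TMM scaling (y axes, log scale) in vein-type gated cells, sinusoid-type gated cells and other endothelial cells, with 1 point per library, pIVCL left of sham in each set. Lyve1 in vein-type cells lies higher in each pIVCL library than in both sham libraries.

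Whether pIVCL moved a gene differently in gated cells than in other endothelial cells was tested as an interaction term, with libraries as blocks. Of 10926 genes 171 passed (1.57%), 73 with a higher effect in the gated cells (0.668%) and 98 with a lower one (0.897%). Without sham 1 the count was 79, and without sham 2 it was 103. Cell-cycle genes led the first set, with 10 of 15 tested higher and 0 lower (median difference of log2 fold changes 4.41, against −0.0154 over all genes). The effect on Lyve1 was larger in gated cells, by a difference of 1.64 ± 0.11 (edgeR adjusted p = 4.5e-12). The effect on Thbd was more negative in gated cells, by a difference of −0.83 ± 0.17 (edgeR adjusted p = 0.00556). Gja4 had a difference of −2.08 ± 0.19 (edgeR adjusted p = 2.58e-09) and Kit of −1.15 ± 0.18 (edgeR adjusted p = 0.000482). Gated cells of pIVCL and sham entered the gate by different genes, as given above, and the part of this in the interaction was not tested. The effect on Ccn2 was smaller in gated cells, by a difference of −1.36 ± 0.12 (edgeR adjusted p = 2.58e-09). Differences for Bmp4, Selp, Wnt2, Esm1 and Angpt2 did not pass. Thbd (−0.69, edgeR adjusted p = 0.0841) no longer passed without pIVCL 2, and Thbd (−0.66, 0.259) without sham 1. Lyve1 (gate at 3) and Thbd (DESeq2, thinned gate, gate at 3) lost the call under other settings.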

How the data were processed

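Each deposited table holds raw molecule counts by cell and gene, corrected for errors in molecular identifiers, per the file headers. The submitters' processing notes name version 1.9.1 of the BD WTA Rhapsody Analysis Pipeline and GRCm39, and for the aligner and annotation the entry is: not given in the sources used here. The rule, its markers, the gene lists and the tests were chosen with earlier results of these data known. Molecule counts of each set of cells were summed per library and compared with edgeR 4.0.16 (quasi-likelihood test, TMM scaling, filterByExpr, Benjamini-Hochberg adjustment over all genes tested, threshold 0.05) in R 4.3.3, after a test on simulated data. Estimates are log2 fold changes ± SE. Vein-type sums needed at least 10 cells per library, set after the data were seen in place of 20, and the vein-type against sinusoid-type and all-endothelial comparisons were also added then. Genes were named by a rule: the 10 largest rises and falls (12 higher and 8 lower against other endothelial cells, 5 each for the interaction) at a mean log2 CPM of at least 5, the 3 members of each list of lowest p, and a preset list. The largest changes were taken among passing genes without overlap between groups (or of 1 sign in 5 of 5 libraries), leaving out markers of other cell types and mitochondrial, haemoglobin, immune receptor, histone and predicted genes. Pcdh17 and a few more named outside it were picked with their values known. Shares were tested by exact permutation, and intervals cover counting error only. Scrublet scores (scanpy 1.11.5) did not remove cells from the main values. Ambient RNA was not corrected. Alternatives were DESeq2 1.42.0 (size factors or Wald test), no expression filter, each library left out, other cell filters and gates, doublets out, depth-matched cells, batch terms and a replicate block.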

Additional observations from a re-analysis of the deposited data

Results flagged for a closer look

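The effect of pIVCL differed between the gated cells and the other endothelial cells for 32 of the genes named or checked, by the interaction test in edgeR with Benjamini-Hochberg adjustment. Over all genes tested 171 of 10926 passed that test (1.57%). The genes named for the largest differences had been picked among those that passed, so the count of 32 gives no separate support. Values are differences of log2 fold changes, the effect in gated cells minus the effect in other endothelial cells, and no explanation was tested. Cell-cycle genes had the largest positive differences, namely Top2a (6.18), Mki67 (5.94), Pclaf (5.47), Tpx2 (3.71), Cdk1 (3.64) and Stmn1 (2.94). Other positive differences were those of the nuclear receptor gene Esrrb (2.29), the chemokine receptor gene Ackr1 (1.79), Lyve1 (1.64), Clu (1.61), Cd36 (1.48), Inhbb (1.45), Dll4 (1.01) and Col4a2 (0.61). Negative differences of tip cell and growth factor genes were those of Apln (−2.37), Pdgfb (−1.32) and Ccn2 (−1.36). Among junction, caveola and pericentral genes they were Gja4 (−2.08), Cldn5 (−1.04), Cav1 (−1.32), Kit (−1.15) and Thbd (−0.83). The sinusoidal genes Clec4g (−0.51), Mrc1 (−0.56) and Plxnc1 (−0.50) had smaller negative differences. The remaining negative differences were Sntb1 (−2.61), Samd5 (−1.78), Depp1 (−1.68), Slc26a10 (−1.64), Adgrg1 (−1.36), Ackr4 (−1.35) and Vcam1 (−0.87). With gated cells that carried other cell types' molecules left out, Ackr1 was at 0.99 (edgeR adjusted p = 0.463), and with the rule applied to thinned counts Top2a was at 4.14 (0.743). Groups of 2 and 3 libraries are too small for a test of single outlying libraries.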

How the results depend on the processing

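Counts of genes past the threshold moved by over 1.5 times under the following settings. For gated cells, pIVCL against sham, 403 became 899 with no expression filter, 204 with the gate on thinned counts and 203 with batch as a term, and 76 to 769 when 1 library was left out. For gated against other endothelial cells, 1457 became 915 without gated cells carrying other cell types' molecules (the other endothelial cells were not filtered), 703 against depth-matched cells and 373 without the library block (no replicate block). The 171 interaction calls became 76 with the DESeq2 Wald test and 79 to 193 when 1 library was left out. In vein-type cells 62 became 107 with no expression filter and 16 to 145 when 1 library was left out. For vein-type against sinusoid-type cells 403 became 702 with no expression filter and 253 with the gate on thinned counts. Over all endothelial cells 563 became 1114 with no expression filter, 1287 with the DESeq2 Wald test, 340 without doublets, 331 with batch as a term and 23 to 2969 when 1 library was left out. The cause of these shifts was not tested, beyond that fewer libraries or more genes entered.

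The share of endothelial cells in the gate differed by 6.51 percentage points without thinning, by 2.01 thinned to 1000 molecules, by 1.77 with a gate of 3 molecules (groups overlapping in both), and by 1.71 to 4.03 when 1 library was left out. The vein-type share turned to 0.614 percentage points higher in pIVCL with the stricter cell filter, and ran over −3.68 to 0.366 when 1 library was left out. Selp in gated cells turned negative with a gate of 3 molecules (−0.13) and under the replicate block (−0.0139), and ran from −0.25 to 0.32 when 1 library was left out (−0.25 without sham 1, −0.18 without pIVCL 1).

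Only numbers 1 and 2 are shared between the groups, and the labels do not say that they pair libraries. Differences between libraries 1 and 2 correlated at −0.193 (gated), −0.0852 (vein-type) and −0.0472 (all endothelial) between pIVCL and sham. With the replicate block 223, 32 and 216 genes passed in gated, vein-type and all endothelial cells, of which 187, 28 and 202 were among those without it, and 23 named results no longer passed. Without the library block 12 of 33 named results of gated against other endothelial cells no longer passed. Vein-type comparisons without cells carrying other cell types' molecules were not run, since a library then held under 10 cells. Depth limits the vein-type sums, which rest on 15 to 25 cells per library.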
